A study of Mus musculus with 8 samples.

Results

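The genes described here are those of the proteins of the cytosolic ribosome in small-intestinal crypts of the mouse, the pits of the epithelium in which its stem cells divide. They were chosen by name: protein-coding genes whose symbol starts with Rpl or Rps and a digit, without the Rps6k kinases. The rule found 88 of the 55880 genes of the table, 54 of the large subunit (Rpl) and 34 of the small subunit (Rps). RNA-seq was made from 8 libraries, 4 from wild-type mice and 4 from miR-29ab1-/- mice, which lack the microRNA genes miR-29a and miR-29b-1 by label. All are labelled C57BL/6N, and the series title places the study in intestinal stem cell fate and energy metabolism. The sources used here do not give age, sex, the extent of the deletion or the number of animals per library.

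The cytosolic ribosome joins ribosomal RNA with one copy of most of its proteins, so cells make these proteins in matched amounts and degrade those left over. Their messenger RNAs are among the most abundant of dividing cells. Most begin with a run of pyrimidines, the TOP motif, through which mTOR signalling and the protein LARP1 control their translation. Several of the proteins, first of all Rpl5 and Rpl11 with the 5S ribosomal RNA, also bind Mdm2, the ubiquitin ligase of p53, when ribosome assembly fails.

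The name rule does not draw the ribosome exactly. It includes Rps19bp1, which binds Rps19 and is not a subunit, the paralogs Rpl7l1, Rpl22l1, Rpl3l, Rpl10l, Rpl39l and Rps27l, and retrocopies such as Rpl9-ps6, Rpl10-ps3, Rpl36a-ps1, Rps18-ps5 and Rps27rt. It leaves out Rplp0, Rplp1, Rplp2, Rpsa, Fau and Rack1, which are ribosomal proteins under other names. Of the 88 genes, 83 passed the filter on low counts and were tested, 49 Rpl and 34 Rps. Of the other 5, Rpl10l, Rpl36-ps4 and Rpl9-ps1 had 0 counts in every library, Rpl39l had 2 counts over all libraries and Rpl3l had 7. Rpl3l is known as a muscle paralog of Rpl3, and Rpl10l and Rpl39l as testis paralogs.

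Total counts ranged from 13879472 to 17368666 per library. Mir29a had 0 counts in every library, and Mir29b-1 had 2, 5, 7 and 3 counts in the 4 libraries labelled knockout and 0 in each wild-type library. Counts of a deleted gene go against the label at face value, so the group is called "labelled knockout" throughout. The neighbouring noncoding RNA Lncpint had 11 to 16 counts in the wild-type libraries and 1831 to 2608 in those labelled knockout, so the groups differ at this locus. Gm27019 (chr6:31063092-31063495) overlaps the edge of Mir29b-1 (chr6:31063023-31063093) on the same strand. It had 0 counts in every wild-type library and 227, 327, 290 and 252 in those labelled knockout. Whether its reads gave the Mir29b-1 counts was not tested. Since both microRNA genes had 0 counts in the wild-type libraries, these counts cannot show whether the microRNAs were lost. H2-Ea-ps, a class II histocompatibility gene on chromosome 17, had 22 and 20 counts in wild-type libraries 2 and 3 and 44 and 12 in labelled knockout libraries 1 and 2, and 0 in the other 4. C57BL/6 mice are known to carry a deletion that silences this gene, so the counts in those 4 libraries go against the strain label at face value; whether their strain background differs was not tested. The labels give no litter, day or batch, so p-values measure the spread between these libraries.

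A pyrimidine run at the start was present in part of these genes. RefSeq promoter windows (GRCm38.p6) were matched for 63 of the 88 genes. An unbroken run of C and T of 6 bases or more on the sense strand, between 10 bases before and 20 bases from the start site on, was present in 37 of the 63 genes (58.7%), and in 32.0% of 16758 protein-coding genes with a window. The letters CCGGAAG, on either strand between 250 bases before the start and 50 after it, were present in 24 of the 63 (38.1%) and in 13.2% of all. These are descriptions of letters in a window, not of bound factors or of use of that start in these crypts. The other 26 genes had shorter runs, and the median longest run of the 63 was 6 bases. The 4 windows with the longest runs, of 17 to 20 bases, are shown as the clearest examples of such a run; the run is in capitals, and the start site is the 11th base.
Rpl27a (chr7:109519185-109519214, plus strand): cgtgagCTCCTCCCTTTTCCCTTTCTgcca
Rpl35 (chr2:39005112-39005141, minus strand): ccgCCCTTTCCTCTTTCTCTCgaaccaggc
Rpl15 (chr14:18270967-18270996, minus strand): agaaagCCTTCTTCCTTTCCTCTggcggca
Rpl7a (chr2:26910797-26910826, plus strand): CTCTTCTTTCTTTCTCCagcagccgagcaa

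A second set of sequences bears on how these genes can be counted. Ribosomal protein messages have left many processed pseudogenes in the mouse genome. A copy was a sequence elsewhere with at least 95% identity over at least 80% of the coding sequence. Each pseudogene was assigned to its best-matching gene. A matching retrocopy among the members was assigned, with its own copies, to its parent gene. Of 87 genes with a coding sequence in GENCODE M21 (GRCm38), 74 were assigned a copy, 547 copies in all. The copies include retrocopies that the name rule also counts as members, so their counts entered both sums. Counted in this way, the copies took 11.4% of the counts of members and copies together. Rpl10 and its retrocopy Rpl10-ps3 were 100% identical over the coding sequence, as were Rps27 and Rps27rt, and Rpl9 and Rpl9-ps6 were 99.8% identical. For such pairs the assignment of a read rests on few bases, and their single values are uncertain.

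The 31-base windows below show the first coding base at which 3 genes differ from the copy whose counts varied most beside theirs. They were chosen after the values were seen. The differing base is in capitals, and positions count from 1 at the A of the start codon. Rpl34 (chr3:130726831-130730398, minus strand) and Rpl34-ps1 (chr6:71124610-71124963, plus strand) differ by T132C and C318G over 354 coding bases. Rpl26 (chr11:68901583-68906989, plus strand) and Gm15772 (chr5:3236431-3236868, plus strand) differ by C177T and T288C over 438 bases. Rpl30 (chr15:34440505-34443640, minus strand) and Gm12191 (chr11:49678710-49679057, minus strand) differ by G96A alone over 348 bases.
Rpl34: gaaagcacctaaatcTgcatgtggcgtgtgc
Rpl34-ps1: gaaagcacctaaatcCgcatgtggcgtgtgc
Rpl26: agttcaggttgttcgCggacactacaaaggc
Gm15772: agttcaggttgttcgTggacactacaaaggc
Rpl30: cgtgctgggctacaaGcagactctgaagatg
Gm12191: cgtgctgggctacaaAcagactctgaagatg

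Most of the family was abundant, and its members stood at unequal levels. On the length-adjusted scale of the deposited FPKM, 78 of the 83 tested genes had a mean of 10 or more over the 8 libraries, with a median of 172 for the Rpl genes and 236 for the Rps genes. The 4 highest Rpl genes were Rpl36 at 738 ± 107 FPKM, Rpl4 at 578 ± 85.7, Rpl41 at 575 ± 76.1 and Rpl8 at 522 ± 80.2 (SD, n = 8). Rpl4 lines the tunnel through which the new protein leaves, Rpl8 lies by the peptidyl transferase centre, and Rpl41 is the smallest ribosomal protein. The 4 highest Rps genes were Rps3a1 at 739 ± 116 FPKM, Rps15 at 692 ± 73.7, Rps29 at 403 ± 44.7 and Rps27rt at 397 ± 126 (SD, n = 8). Rps15 lies near the decoding site in the head of the small subunit, and Rps29 is a zinc-binding protein of the same head. Rps3a1, Rpl36 and Rps15 differed by less than 1 SD over the libraries, as did Rpl4, Rpl41 and Rpl8, and Rps29 and Rps27rt. The steps from Rpl36 to Rpl4 and from Rps15 to Rps29 were larger than 1 SD. The order by FPKM depends on the annotated length and differs from that by CPM, counts scaled to a common library size. Rps27rt, with 374 exonic bases, had a mean of 150 CPM over the 8 libraries. Rpl5, with 3920 exonic bases, was at 159 FPKM, and at 647 CPM in the wild-type group and 615 CPM in the labelled knockout group.

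No ribosomal protein gene passed the threshold between the groups. With edgeR's quasi-likelihood test, 0 of the 83 genes had an adjusted p under 0.05, beside 3 of 14897 genes tested in all (0.0201%). DESeq2 and limma-voom also called 0 of them. At an unadjusted p under 0.05 there were 3 of 83 members (3.61%) by edgeR, beside 402 of all genes (2.70%); DESeq2 gave 2 members and limma-voom 3. In 0 of the 83 did the 4 libraries of a group all lie above those of the other, which 228 of all genes did (1.53%). In the authors' deposited table, 0 of the 85 members with an adjusted p were under 0.05, and the smallest was 0.701.

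The fitted differences lay close to 0 on both subunits. The median log2 fold change, labelled knockout minus wild type, was -0.01 for the 49 Rpl genes and -0.00 for the 34 Rps genes, beside 0.01 for all genes. Of the 83, 40 lay above 0 and 43 below, 75 within 0.25 of 0 and 60 within 0.1. The 95% interval of the fold lay within 1.5-fold either way for 58 genes and within 2-fold for 74. Its median half-width was 0.42 on the log2 scale, or 1.34-fold.

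**Figure D1:**
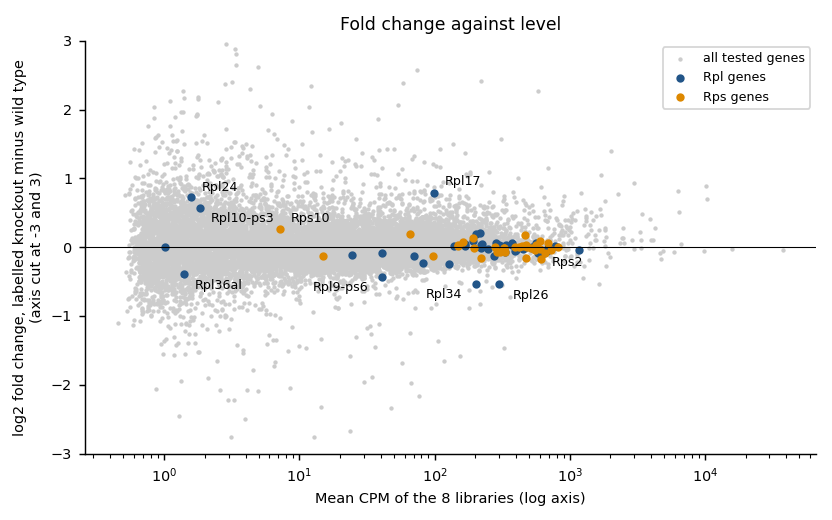
Each point is a tested gene: the horizontal axis is the mean CPM of the 8 libraries on a log axis and the vertical axis the fitted log2 fold change, labelled knockout minus wild type, cut at 3, which leaves out 17 genes. The Rpl and Rps genes lie around 0, from -0.54 (Rpl26) to 0.79 (Rpl17), and none was called.

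The share of a library's counts in these genes differed more within the groups than between them. In the wild-type libraries 1 to 4 it was 3.69%, 2.63%, 2.78% and 3.12%, a mean of 3.05 ± 0.472% (SD, n = 4). In the labelled knockout libraries 1 to 4 it was 3.14%, 2.70%, 3.87% and 1.84%, a mean of 2.89 ± 0.847% (SD, n = 4). The highest and the lowest library were both of the labelled knockout group, and the groups overlapped. The difference of the means, -0.165 percentage points, was smaller than either SD. Both subunits had their highest share in labelled knockout library 3 and their lowest in library 4. The ratio of Rpl to Rps counts was 1.26 ± 0.0547 in the wild-type group and 1.24 ± 0.0412 in the labelled knockout group (SD, n = 4). It was 1.32 and 1.29 in wild-type libraries 2 and 3 and 1.24 and 1.29 in labelled knockout libraries 1 and 2. These 4 are the libraries with H2-Ea-ps counts. The ratio was lower in the others: 1.21 in wild-type libraries 1 and 4, 1.22 in labelled knockout library 3 and 1.20 in library 4.

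**Figure D2:**
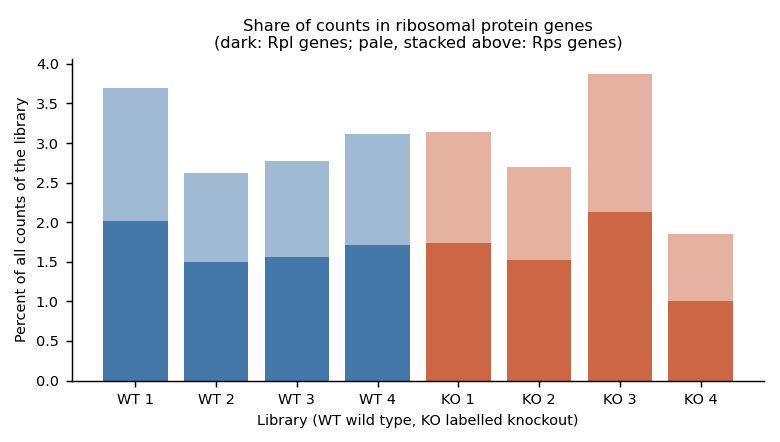
Bars give the percent of all counts of each library in Rpl genes (dark) and, stacked above, Rps genes (pale), with wild-type libraries in blue and labelled knockout libraries in orange. Labelled knockout libraries 3 (3.87%) and 4 (1.84%) are the highest and the lowest of the 8, and the 2 groups overlap.

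A single library held the low end across the family. In CPM, counts scaled to a common library size, labelled knockout library 4 was the lowest of the 8 for 63 of the 83 genes, 37 Rpl and 26 Rps, and it was the highest for 0. Labelled knockout library 3 was the highest for 41. Relative to its own mean over the 8 libraries, the median gene was at -0.40 on the log2 scale in library 4 and at 0.24 in library 3. Without library 4 the median difference of all members moved from -0.01 to 0.11, with 71 of 83 above 0, and without library 3 to -0.08, with 19 above 0. Without labelled knockout library 1, 16 were above 0, and without wild-type library 2, 19. The sign of the median thus depended on which library was left out, and 0 members were called without any one library.

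**Figure D3:**
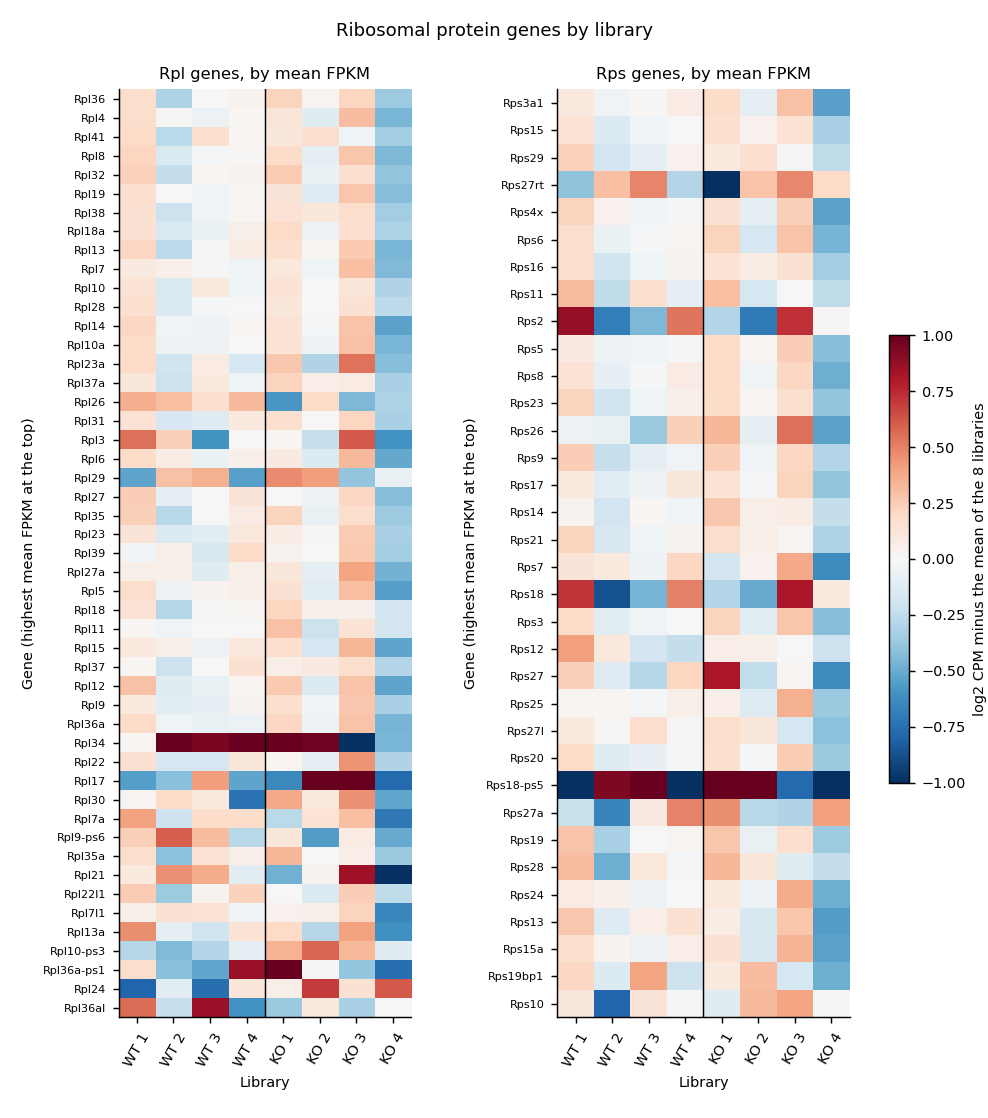
Rows are the 83 tested genes in order of mean FPKM and columns the 8 libraries; colour gives log2 CPM minus the gene's mean over the libraries, with the scale ended at -1 and 1. Labelled knockout library 4 is blue in most rows (lowest for 63 genes), while rows such as Rpl34, Rpl17, Rps2, Rps18 and Rps18-ps5 follow patterns of their own.

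Some other lists of genes and cell markers stood apart in the same library, and others did not. The summed CPM of goblet, enteroendocrine, tuft, T, and B and plasma cell markers there lay within the range of the other 7. Those of myeloid, fibroblast and muscle, and endothelial markers did so too. The summed level of 14 cell cycle genes was 702 CPM in labelled knockout library 4 and 1094 to 1664 CPM in the other 7, and 13 of the 14 were lowest there. Of the 14, 13 lay below 0 and 0 were called by edgeR, with a median log2 fold change of -0.32. Without library 4 the median was -0.12, with 2 of the 14 above 0. The summed level of 10 enterocyte markers was 64233 CPM in library 4, 11044 CPM in labelled knockout library 3, and 15297 to 28452 CPM in the others. That of 7 stem cell markers was 1477 CPM in library 4 and 2357 to 4107 CPM in the others, with 5 of the 7 lowest there. Lgr5 was at 46.8 CPM in library 4, within its 43.4 to 74.5 CPM in the wild-type libraries. Of the 7 stem cell markers, 5 lay above 0, and 7 without library 4, and 0 were called by edgeR. The summed level of 5 red blood cell markers was 55.1 CPM in library 4 and 2.69 to 15 CPM in the others. That of 9 Paneth cell markers was 22820 to 29455 CPM in the wild-type libraries, 46549, 62309 and 36708 CPM in labelled knockout libraries 1 to 3 and 18414 CPM in library 4. Of these 9, 5 were lowest in library 4. Defa21 was at 2472 CPM there, above its 414 to 1636 CPM in the wild-type libraries. All 9 Paneth markers lay above 0 and 0 were called by edgeR, with 2 at an unadjusted p under 0.05. Their part in the level of the ribosomal protein genes was not tested. In bulk RNA, fewer cells of a type and less RNA per cell cannot be told apart.

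Genes that build the ribosome were also low in labelled knockout library 4. Of 32 ribosome assembly factors, the proteins that process and package ribosomal RNA in the nucleolus, 0 were called by edgeR, 30 lay below 0 and 31 were lowest in labelled knockout library 4. Their median log2 fold change was -0.17, and -0.03 without that library. Utp20, a component of the small subunit processome, differed by -0.45 (SE 0.19, unadjusted p = 0.0407, adjusted p = 0.994 by edgeR) and Bysl by -0.34 (SE 0.19, adjusted p = 0.994 by edgeR). Of 16 RNA polymerase I genes 0 were called, with a median of -0.06. Of 14 translation factors and other genes with TOP messages 0 were called, with a median of -0.04. Without labelled knockout library 4 both medians lay above 0, at 0.06 for each list, with 9 of 16 and 13 of 14 genes above 0. Polr1d, a subunit shared by RNA polymerases I and III, had the smallest p of its list with a log2 difference of -0.24 (SE 0.16), and Polr2l, a subunit of all 3 polymerases, was at -0.17 (SE 0.14). Tpt1 was at 0.16 (SE 0.17) and Hnrnpa1 at -0.19 (SE 0.21) in the list with TOP messages. All Tpt1 values of the labelled knockout (1318 to 1524 CPM) lay above those of the wild type (1137 to 1298 CPM). Tpt1 was the 1 gene of these 14 without overlap, beside 228 of all genes (1.53%).

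The genes of mitochondrial ribosomal proteins, which serve the separate ribosome of the mitochondrion, lay mostly below 0. Of 76 tested, 67 lay below 0, with a median log2 fold change of -0.14, and 0 were called. Without labelled knockout library 4 the median was -0.02 and 29 lay above 0. The difference between the 2 families was not tested.

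Of the MYC and mTOR regulators, 0 of 17 were called. Mxd4, a MYC antagonist, differed by 0.41 (SE 0.16, unadjusted p = 0.0291, adjusted p = 0.994 by edgeR), and Max, the partner of MYC, by 0.55 (SE 0.31). Max reached 364 CPM in labelled knockout library 4 and 118 to 181 CPM in the other 7. Of 9 tested S6 kinase genes, which the name rule leaves out and among which are kinases of Rps6, 0 were called; Rps6ka3 was at -0.14 (SE 0.13) and Rps6ka2 at -0.48 (SE 0.46).

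The messages of Rpl5 and Rpl11 showed no detectable difference. They encode proteins of the 5S particle, through which ribosome assembly is known to reach p53, and the particle itself was not measured. Rpl5 was at 703, 600, 637 and 648 CPM in the wild-type libraries and at 694, 577, 766 and 424 CPM in those labelled knockout. The labelled knockout values lay on both sides of the wild-type ones, with a log2 difference of -0.07 (95% interval -0.53 to 0.39). Rpl11 was at 375, 358, 368 and 371 CPM in the wild-type libraries and at 453, 319, 407 and 325 CPM in those labelled knockout. Its labelled knockout values lay on both sides of the wild-type range, and the difference was 0.03 (95% interval -0.32 to 0.38). Of 10 genes whose proteins are reported to bind Mdm2, 0 were called, with a median of -0.00. Of 15 genes mutated in Diamond-Blackfan anaemia, a red cell aplasia of low ribosomal protein dose, 0 were called, with a median of 0.01.

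Among genes grouped by place in the ribosome, 0 were called in any group. The 9 tested genes of the peptide exit tunnel had a median log2 fold change of -0.01 and ranged from -0.54 to 0.79, ends set by Rpl26 and Rpl17. The 5 of the stalk base and peptidyl transferase side lay between -0.09 (Rpl3) and -0.01, with Rpl12, at the base of the stalk, at -0.03 (SE 0.21). All 5 of these were lowest in labelled knockout library 4; without it, 5 of 5 lay above 0, with a median of 0.11. The 4 of mRNA entry and decoding lay between -0.18 (Rps2) and 0.02 (Rps15), and the 5 of the head and beak between -0.06 and 0.26 (Rps10). Rps27a, made as a fusion with ubiquitin, was at 0.13 (SE 0.27) in the last group. Without labelled knockout library 4, the medians of the tunnel, the mRNA entry and the head groups were 0.10, 0.12 and 0.09.

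The 6 ribosomal proteins outside the name rule that are given here were also abundant, and 0 were called by edgeR, with 0 at an unadjusted p under 0.05. Rplp0, the scaffold of the stalk, was at 885 FPKM over the 8 libraries and differed by -0.01 (SE 0.20), and Rplp1, a stalk protein, was at 1637 FPKM and differed by 0.02 (SE 0.19). Rplp2 differed by 0.02 (SE 0.17), Rpsa by -0.04 (SE 0.21), Rack1, a signalling scaffold on the head, by -0.02 (SE 0.21) and Fau, a fusion with a ubiquitin-like protein, by 0.15 (SE 0.14).

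The member with the smallest p was Rpl26, a protein at the tunnel exit that is also reported to bind p53 mRNA and Mdm2. It was at 373, 357, 323 and 363 CPM in the wild-type libraries and at 193, 333, 213 and 234 CPM in those labelled knockout. Labelled knockout library 2 lay within the wild-type range and the other 3 below it. The log2 fold change was -0.54 (SE 0.18, 95% interval -0.95 to -0.13, unadjusted p = 0.0151, adjusted p = 0.994 by edgeR). Its near-identical copy Gm15772, shown above, was at 21.5, 22.4, 18.7 and 22.9 CPM in the wild-type libraries and at 214, 22.4, 254 and 17.7 CPM in those labelled knockout. The copy was high in labelled knockout libraries 1 and 3, which are 2 of the 3 in which Rpl26 was low. With its copies added, an alternative chosen after the data were seen, Rpl26 differed by -0.02 (SE 0.19, adjusted p = 0.998 by edgeR) and its sum ranged from 254 CPM in labelled knockout library 4 to 470 CPM in library 3.

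Rpl34, a large subunit protein named after its values were seen, showed the widest exchange with a copy. It was at 138, 286, 263 and 276 CPM in the wild-type libraries and at 295, 267, 5.36 and 99.2 CPM in those labelled knockout. Rpl34-ps1 was at 137, 18.9, 21.5 and 23.2 CPM in the wild-type libraries and at 27.3, 16.3, 320 and 108 CPM in those labelled knockout. Where the gene was low the copy was high, in wild-type library 1 and labelled knockout libraries 3 and 4. The sum of Rpl34 and all its copies was 283 to 336 CPM in 7 libraries and 214 CPM in labelled knockout library 4. The highest library exceeded the lowest by 55.0-fold for Rpl34 alone and by 1.57-fold for the sum, and the share in copies ran from 8.24% to 98.4%.

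The same exchange was seen at Rps26 and, in wild-type library 4, at Rpl30. Rpl30, named after its values were seen, was at 127 CPM in wild-type library 4 and 147 CPM in labelled knockout library 4, and at 216 to 290 CPM in the other 6. Gm12191 was at 114 CPM in wild-type library 4 and at 10.7 to 27.7 CPM in the others. In labelled knockout library 4 it was at 24.1 CPM, so the low Rpl30 there had no matching rise of this copy. In wild-type library 4 the sum of Rpl30 and its copies, 255 CPM, was like that of wild-type library 2, 259 CPM. Rps26, a protein at the mRNA exit and a Diamond-Blackfan anaemia gene, was at 438, 434, 354 and 541 CPM in the wild-type libraries and at 577, 433, 670 and 315 CPM in those labelled knockout. Its copies took from 2.42% of the sum in wild-type library 4 to 32.5% in wild-type library 3. The log2 difference was 0.18 (SE 0.25) for Rps26 and 0.01 with copies. In 19 members the share in copies varied by over 10 percentage points between libraries. The cause was not tested.

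**Figure D4:**
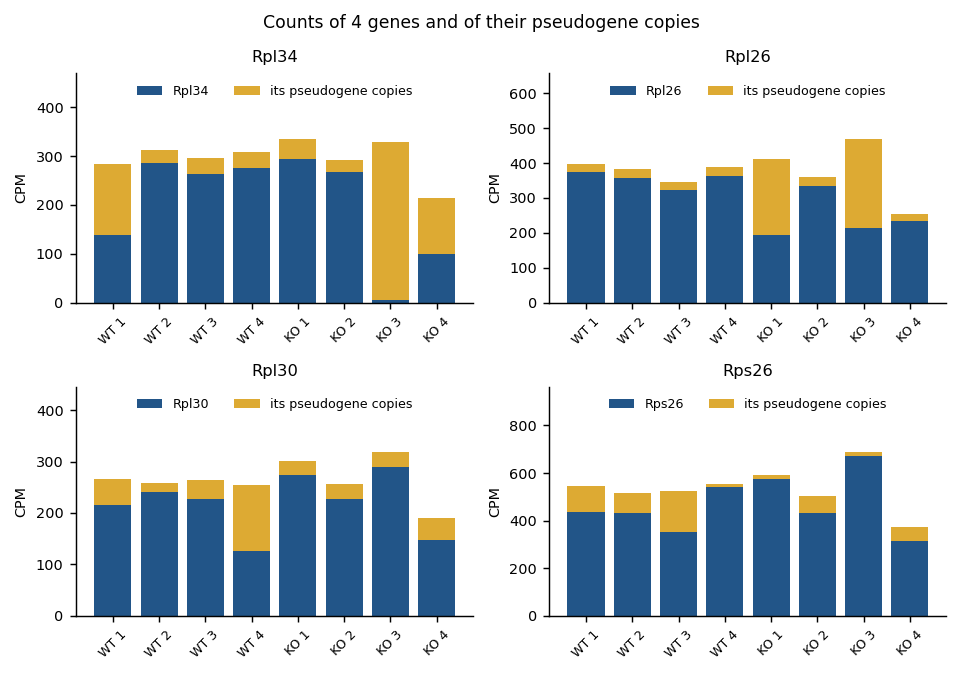
For 4 genes, bars give the CPM of the gene (blue) and of all its near-identical pseudogene copies (yellow, stacked) in each library. In labelled knockout library 3 nearly all counts of Rpl34 (98.4%) fall on the copies, while the stacked height of 328 CPM lies within the 283 to 336 CPM of the libraries other than labelled knockout library 4 (214 CPM).

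Rps2 and Rps18, 2 small subunit genes on chromosome 17 named after their values were seen, split the libraries across the groups. Rps2 was at 1031, 349, 413 and 815 CPM in the wild-type libraries and at 460, 345, 936 and 568 CPM in those labelled knockout. Rps18 was at 737, 245, 324 and 637 CPM in the wild-type libraries and at 366, 315, 784 and 480 CPM in those labelled knockout. Both were low in wild-type libraries 2 and 3 and labelled knockout libraries 1 and 2, the 4 libraries with H2-Ea-ps counts.

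Copies of the same genes ran the other way. Rps2-ps10 was at 132 and 170 CPM in wild-type libraries 2 and 3 and at 180 and 132 CPM in labelled knockout libraries 1 and 2, and at 6.42 to 13.3 CPM in the other 4. Rps18-ps5 was at 95.3, 103, 122 and 112 CPM in the first 4 and at 17.9 to 29.1 CPM in the rest. Unlike Rpl34, the sums were not even: with copies, the highest library exceeded the lowest by 2.03-fold for Rps2 and by 2.36-fold for Rps18. The log2 differences between the groups were -0.18 (SE 0.41) for Rps2 and 0.00 (SE 0.40) for Rps18. Rpl29, likewise named after its values were seen, was at 136, 135 and 149 CPM in wild-type libraries 1 and 4 and labelled knockout library 3, and at 186 to 273 CPM in the other 5. What sets these libraries apart was not tested.

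Rpl17, which narrows the exit tunnel with Rpl4, had the largest fitted difference. It was at 57, 62.6, 111 and 58.1 CPM in the wild-type libraries and at 53.5, 181, 218 and 48.6 CPM in those labelled knockout. Labelled knockout libraries 2 and 3 were high and libraries 1 and 4 lay below all wild-type ones, so that the log2 difference of 0.79 (SE 0.50, adjusted p = 0.994 by edgeR) was within the spread. From 53.6% to 89.0% of the counts of Rpl17 and its 22 copies fell on the copies, and the difference with copies was 0.00. Leaving out 1 library moved the difference of Rpl17 alone from 0.39, without labelled knockout library 3, to 1.08.

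Rpl24, Rps10 and Rpl36al were the tested canonical or paralog genes with the lowest levels. Rpl24, a protein of a bridge between the subunits, had a mean of 1.52 ± 0.545 FPKM, Rps10, a head protein, 3.06 ± 0.669 FPKM, and Rpl36al, a paralog of Rpl36a, 1.03 ± 0.380 FPKM (SD, n = 8). Rpl13a, named after its values were seen, followed at 11.4 ± 2.78 FPKM. These 4 are also the members with the most exonic bases shared with another gene on the same strand in GENCODE M21: 47.0% for Rpl24 with Gm28037, 35.4% for Rpl13a with Gm45713, 24.5% for Rpl36al with Gm49383 and 20.6% for Rps10 with the readthrough gene Gm49804. The next highest overlap was 14.5%, and 62 of the 88 had none. Gm28037, Gm45713, Gm49383 and Gm49804 themselves had 0 counts in every library. The sources used here do not say how reads on shared bases were counted, so these 4 levels are uncertain.

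**Figure D5:**
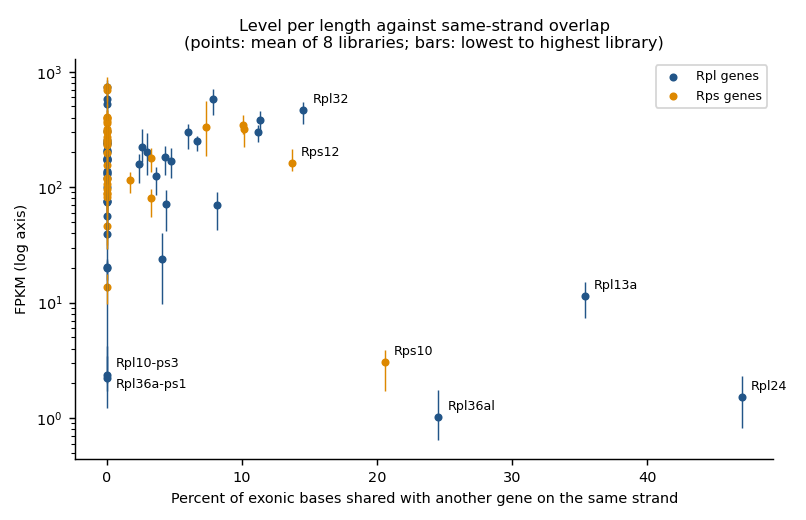
Points give the mean FPKM of each tested gene over the 8 libraries (log axis; bars from the lowest to the highest library) against the percent of its exonic bases shared with another gene on the same strand. The 4 genes above 20% overlap lie between 1.03 and 11.4 FPKM; the other low points at 0% are the retrocopies Rpl10-ps3 and Rpl36a-ps1.

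At Rps10 and Rpl24 the copies outweighed the genes. Rps10-ps2 had 1335 to 2902 counts per library, and 94.4% to 97.3% of the counts of Rps10 and its copies fell on the copies. Rpl24 was at 0.858, 1.38, 0.877 and 1.61 CPM in the wild-type libraries and at 1.54, 2.41, 1.65 and 2.27 CPM in those labelled knockout. Labelled knockout library 1 lay below wild-type library 4 and the other 3 above all wild-type ones. The log2 difference was 0.73 (SE 0.32, unadjusted p = 0.0438, adjusted p = 0.994 by edgeR), and 0.20 with its copies. Rps10 differed by 0.26 (SE 0.24) and Rpl36al by -0.39 (SE 0.36).

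The remaining genes with the smallest p in their direction did not pass either. Rpl10-ps3, the retrocopy identical to Rpl10, was at 1.47, 1.32, 1.46 and 1.68 CPM in the wild-type libraries and at 2.28, 2.67, 2.24 and 1.64 CPM in those labelled knockout. Library 4 of the labelled knockout lay within the wild-type range and the other 3 above it, with a log2 difference of 0.57 (SE 0.25, unadjusted p = 0.0458, adjusted p = 0.994 by edgeR). Rpl10 itself was at 527 ± 47.4 CPM in the wild-type group and 523 ± 70.0 CPM in the labelled knockout group (SD, n = 4). Rpl9-ps6 was at 46.3, 59.6, 48.6 and 32.4 CPM in the wild-type libraries and at 42.6, 26.7, 41.6 and 27.7 CPM in those labelled knockout, which overlapped, with a difference of -0.43 (SE 0.22). Among the Rps genes, Rps14, a platform protein, differed by 0.09 (SE 0.16), Rps13 by -0.15 (SE 0.19) and Rps7, which is reported to bind Mdm2, by -0.15 (SE 0.21).

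The expressed paralogs and Rps19bp1 were close in both groups. Rps27l, a paralog of Rps27 known as a p53 target, was at 103, 97.1, 108 and 96.9 CPM in the wild-type libraries and at 109, 104, 85.2 and 72.4 CPM in those labelled knockout. The groups overlapped, with a log2 difference of -0.13 (SE 0.14). Rpl22l1, which can replace Rpl22, was at 42.2 ± 7.71 CPM in the wild-type group and 39.7 ± 6.17 CPM in the labelled knockout group, and Rpl7l1 at 74.1 ± 4.47 and 67.7 ± 16.1 CPM (SD, n = 4). Rps19bp1 was at 15.7 ± 3.14 and 14.4 ± 3.34 CPM (SD, n = 4). Rps27rt, whose coding sequence is that of Rps27, was at 107, 174, 199 and 116 CPM in the wild-type libraries and at 68.3, 173, 198 and 162 CPM in those labelled knockout; Rps27 was at 276 CPM in labelled knockout library 1, where Rps27rt was lowest, and at 101 to 184 CPM in the others.

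The members with the highest FPKM lay near a ratio of 1 between the groups. Rps15 was at 481, 399, 429 and 439 CPM in the wild-type libraries and at 493, 450, 482 and 349 CPM in those labelled knockout. The labelled knockout libraries lay on both sides of the wild-type range, and the ratio was 1.02 (95% interval 0.794 to 1.30). The ratios of Rpl36, Rpl4, Rpl41 and Rpl8 were 1.04, 0.968, 0.965 and 0.988, and those of Rps3a1 and Rps29 were 0.969 and 1.01. The interval of Rps29 was the narrowest of these, 0.796 to 1.27, and that of Rpl8 ran from 0.724 to 1.35.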

How the data were processed

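Crypt libraries keep the strand of the RNA, per the labels' protocols. The submitters' processing notes name HISAT2 and DESeq2, with no version. How reads were counted, by strand or with several matches, is not stated in the sources used here. The authors deposited whole-number counts per gene, FPKM, group means (a signal), log2 fold changes and p-values, per the file headers. Coordinates equalled those of GENCODE M21 (GRCm38) for 99.47% of shared identifiers.

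Counts were tested over all genes with edgeR 4.0.16 (R 4.3.3; TMM, filterByExpr, robust quasi-likelihood test, Benjamini-Hochberg threshold 0.05), checked on simulated data. The SE is the absolute log2 fold change over the square root of F, and intervals use the test's degrees of freedom. CPM are counts over TMM library sizes. Percent of counts uses all counts. The 409 rows with an identifier but no symbol held 0.279% of counts and were kept. Copies were found with BLAST+ 2.17.0. Every pair of libraries within a group differed by more than sampling noise, with a chi-square of at least 32.3 per degree of freedom. No source says that equal replicate numbers mark pairs, so they were not taken as pairs. Their deviations from the group means correlated by 0.075, 0.034, -0.388 and -0.087. As such deviations sum to 0 within a group, these values cannot exclude pairing.

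Named genes are, separately for Rpl and Rps, the 4 with the highest and the 2 tested with the lowest mean FPKM and the 3 smallest p per direction, the tested paralogs, 5S particle and subunits outside the name rule, the 2 smallest p of each list that is not of a cell type, and 4 genes of the miR-29 locus; others are said to be named after their values were seen. Members and lists were chosen with earlier results of these data known. Alternatives were RLE size factors, TMM without the members, DESeq2 1.42.0, limma-voom (limma 3.58.1), 2 other filters, protein-coding genes alone, a replicate block, pseudogene counts added and leaving out each library. One ribosomal protein gene outside the name rule is not reported here.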

Additional observations from a re-analysis of the deposited data

Results flagged for a closer look

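Among the named genes and the share of counts in all members, 52 groups of 4 libraries were checked for a library far from the other 3, a check that chance alone meets in about 1 group in 20. It marked 1: Rpl17 in wild-type library 3, at 111 CPM, beside 57, 62.6 and 58.1 CPM in the other wild-type libraries. The copy Rpl17-ps10 was at 159 CPM in that library and at 243 to 284 CPM in the other wild-type libraries.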

How the results depend on the processing

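0 members were called under every alternative run. The count of genes called in all, 3, was 5 with no filter, 0 with protein-coding genes alone (316 at an unadjusted p under 0.05 by edgeR) and 21 with DESeq2, and 2 to 3 without 1 library. With the replicate block, 2 genes and 0 members were called; it changed no other call. The Rpl median ranged from -0.11 to 0.11 and the Rps median from -0.07 to 0.10 without 1 library, and the difference in percent of counts from -0.492 to 0.183 points. Of the named members, 12 changed sign under no alternative; without 1 library the log2 differences of the other 13 ran from -0.071 to 0.10 (Rpl11), -0.027 to 0.18 (Rpl36), -0.17 to 0.078 (Rpl4), -0.14 to 0.048 (Rpl41), -0.20 to 0.073 (Rpl5), -0.23 to 0.029 (Rpl7l1), -0.12 to 0.11 (Rpl8), -0.032 to 0.12 (Rps15), -0.26 to 0.0021 (Rps19bp1), -0.15 to 0.25 (Rps27rt), -0.053 to 0.091 (Rps29), -0.16 to 0.10 (Rps3a1) and -0.33 to 0.0026 (Rps7). Those that kept their sign also moved: Rps26 from 0.00088 to 0.35, Rps14 from 0.0086 to 0.18, Rps10 from 0.088 to 0.35, Rps13 from -0.29 to -0.017, Rpl36al from -0.59 to -0.13, Rpl22l1 from -0.20 to -0.016 and Rps27l from -0.22 to -0.026. Rps27rt was -0.043 with the replicate block and -0.050 with limma-voom, beside 0.01. The cause was not tested. With 4 libraries a group, the median interval of a member spans 1.34-fold either way, and genes at a few CPM or with near-identical copies are less certain than that.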
